A study of Mus musculus with 6 samples.

Results

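The 10 genes described here encode the inhibitors of cyclin-dependent kinases (CDKs) and the retinoblastoma protein family of the mouse: Cdkn1a, Cdkn1b and Cdkn1c (the Cip/Kip family), Cdkn2a, Cdkn2b, Cdkn2c and Cdkn2d (the Ink4 family), and Rb1, Rbl1 and Rbl2. They were chosen by name, with earlier results of these data known. Every non-control probe that the array annotation assigns to them was taken, which gave 15 of 41174 probes. Of these, 13 passed the filter on dim probes, so that each of the 10 genes was among the 16703 genes tested. The probes not kept, 1 of Cdkn1b and 1 of Rb1, were not well above background on any array.

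Primary cultures of C4HD tumour cells were transfected with 30 nM pre-miR-16, a precursor of the microRNA miR-16, or with 30 nM pre-miR-Control, a scrambled precursor giving no known mammalian microRNA, and total RNA was taken after 48 h. C4HD is a hormone-dependent ductal tumour of the mammary gland that first grew in BALB/c females given the progestin medroxyprogesterone acetate (MPA), and it is passed from animal to animal under a 40 mg MPA depot, so that the cells of both groups came from MPA-treated hosts. Per the labels' protocols, the cultures hold the epithelial fraction of dissociated tumours, from which fibroblasts were depleted by repeated sedimentation, kept in steroid-stripped serum before transfection. There were 3 pre-miR-16 and 3 pre-miR-Control samples, described as biological replicates, with 1 single-colour Agilent array each, and the sources used here do not say whether replicates came from separate tumours.

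CDKs paired with cyclins drive the cell through the division cycle by phosphorylating, among others, the retinoblastoma family. Unphosphorylated Rb1, Rbl1 (p107) and Rbl2 (p130) proteins bind E2F transcription factors and hold down the genes of DNA replication and mitosis. Ink4 proteins bind the kinases Cdk4 and Cdk6 and keep them from D-type cyclins, whereas Cip/Kip proteins bind cyclin-CDK complexes more broadly and restrain the kinases that work with cyclins E and A. In mammary epithelium these inhibitors link growth arrest, senescence and differentiation signals to the cell cycle.

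The microRNA that the transfected precursor yields is shown because its seed, bases 2 to 8 in capitals, is the stretch that pairs with target transcripts. The mature sequence from RefSeq (GRCm38.p6) is the same for both mouse loci, Mir16-1 on chromosome 14 and Mir16-2 on chromosome 3.
mmu-miR-16-5p: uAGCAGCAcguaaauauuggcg

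Levels below are log2 processed signals relative to the array's own 75th percentile, and a change is the log2 ratio of pre-miR-16 to pre-miR-Control ± SE, fitted by limma, with p-values adjusted by Benjamini-Hochberg over all 23828 kept probes. A gene was called at an adjusted p under 0.05 at its brightest kept probe. The 75th percentile lay between 626 and 911 signal units, 57.2% to 64.0% of the spots rose well above background, and saturation affected 0 spots. Slide 1 held pre-miR-16 replicate 1 and pre-miR-Control replicate 1, slide 2 held pre-miR-16 replicate 2 and pre-miR-Control replicates 2 and 3, and slide 3 held pre-miR-16 replicate 3 alone. All 11 luminal epithelial markers listed were well above background on all 6 arrays. The median change over all genes was -0.20. The log2 level of the spike-in probes relative to the 75th percentile was 1.42 to 1.58 on pre-miR-16 arrays and 1.80 to 2.11 on pre-miR-Control arrays, and scaling on them adds 0.41 to every change and turns the share of higher calls among all probes called to 80.5%, against 32.7% with the 75th percentile. The sources used here do not state the amount of spike-in RNA added per sample.

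Of the 7 CDK inhibitor genes, 5 had higher transcript levels in pre-miR-16 than in pre-miR-Control cultures: Cdkn1a, Cdkn1c, Cdkn2a, Cdkn2b and Cdkn2c. None of the 10 genes was called lower, and Cdkn1b, Cdkn2d and the 3 retinoblastoma family genes were not called. The background for these counts is 15.8% of all genes called higher and 32.4% called lower. Over single probes, 6 of the 13 were called higher and 0 lower, against 15.2% and 31.3% of all kept probes. At an unadjusted p under 0.05 in limma, 0 of the 10 genes and 1 of the 13 probes, a second probe of Cdkn1b, were lower. The arrays of the 2 groups did not overlap for 7 of the 10 genes, the 5 that rose and Rb1 and Rbl2, against 61.4% of all genes. By family, 2 of 3 Cip/Kip genes and 3 of 4 Ink4 genes rose, with median changes of 2.24 and 1.08, while 0 of 3 retinoblastoma family genes were called at a median of -0.17, close to the median of all genes. The 5 rises stayed called in every alternative in which these genes were fitted, from spike-in scaling to leaving out any 1 array. Cdkn1c passed the filter through the pre-miR-16 arrays only, with 0 of 3 control arrays well above background. It was not fitted when all 6 arrays had to be well above background. In bulk RNA of this kind, fewer or more cells of a type and less or more RNA per cell cannot be told apart.

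**Figure D1:**
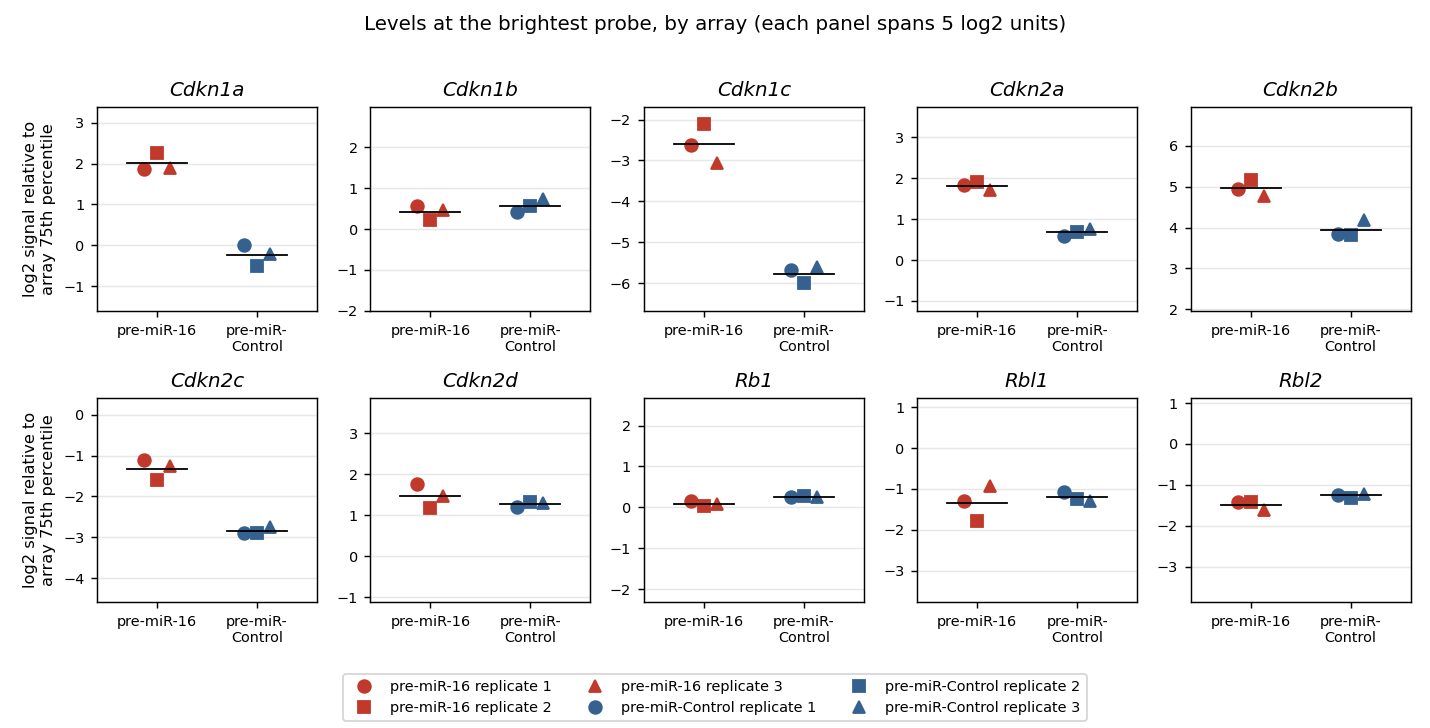
Level of each gene at its brightest probe on the 6 arrays, as log2 signal relative to the array's 75th percentile (vertical axis), with pre-miR-16 arrays in red on the left, pre-miR-Control arrays in blue on the right, marker shapes for replicate numbers and lines at group means. All panels have the same height, and for Cdkn1a, Cdkn1c, Cdkn2a, Cdkn2b and Cdkn2c every pre-miR-16 array lies above every control array, whereas the groups overlap for Cdkn1b, Cdkn2d and Rbl1.

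Cdkn1a encodes p21, the inhibitor that p53 induces after DNA damage and other stress. Its level was 1.86, 2.27 and 1.90 on replicates 1, 2 and 3 of pre-miR-16, against 0.01, -0.50 and -0.21 on replicates 1, 2 and 3 of pre-miR-Control. The pre-miR-16 arrays all lay above the control arrays by a wide margin, and replicate 2 was the highest of them. The group means were 2.01 ± 0.23 and -0.23 ± 0.26 (SD, n = 3 each), a change of 2.24 ± 0.18 or 4.71-fold (95% interval of the log2 change 1.81 to 2.66, limma adjusted p = 2.47e-04). Of all kept probes, 5.77% rose at least as much. The probe lies on chromosome 17 at 27293819 to 27293878 on the plus strand (build mm7, as for all probe positions here, per the file annotation). It is printed in 10 spots per array, whose SD within an array was 0.0254 to 0.0428, smaller than the spread between arrays of a group.

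Cdkn1c encodes p57, an imprinted Cip/Kip inhibitor best known from differentiating and non-dividing tissue. Its processed signal was 120, 170 and 109 units on replicates 1, 2 and 3 of pre-miR-16, against 12.2, 10.1 and 14.2 units on the pre-miR-Control arrays. It was well above background on all 3 pre-miR-16 arrays and on 0 of 3 control arrays, so that the change has only a lower bound. The transcript was at least 6.75-fold higher in the pre-miR-16 cultures (adjusted p = 2.52e-04), where the bound sets the mean pre-miR-16 level against the lowest signal well above background on the control arrays. The measured log2 levels averaged -2.60 ± 0.47 in pre-miR-16 cultures and -5.77 ± 0.21 in pre-miR-Control cultures (SD, n = 3 each), a difference of 3.16 ± 0.25. The bound holds for the processed signal alone: with normexp, a background correction that adds an offset, the change was 1.12 and still called. The probe lies on chromosome 7 at 139886128 to 139886187 on the minus strand.

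Cdkn1b, which encodes p27, an inhibitor controlled largely through its translation and its destruction by ubiquitin ligases, was measured by kept probes at 2 places. The brightest probe, annotated to a cDNA (chromosome 6, 134939519 to 134939578), read 0.56, 0.22 and 0.46 on replicates 1, 2 and 3 of pre-miR-16, against 0.43, 0.56 and 0.74 on replicates 1, 2 and 3 of pre-miR-Control. The groups overlapped, and the change of -0.17 ± 0.14 was not called (95% interval -0.49 to 0.16, adjusted p = 0.344). The second probe starts 4112 bases upstream, is annotated to the RefSeq transcript and is shown because it is the Cdkn1b probe whose groups do not overlap; it lies in the coding sequence, in the part known to bind cyclin-CDK complexes.
Cdkn1b probe, chr6:134935407-134935465 (mm7, plus strand): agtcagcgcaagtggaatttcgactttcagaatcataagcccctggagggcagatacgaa
On this probe the levels were -3.36, -3.29 and -3.94 in pre-miR-16 cultures, against -2.80, -3.14 and -2.88 in pre-miR-Control cultures. Every pre-miR-16 array was below every control array, and groups likewise did not overlap, in one direction or the other, for 59.7% of all kept probes. The change of -0.59 ± 0.20 missed the threshold (95% interval -1.08 to -0.11, adjusted p = 0.0514). Its adjusted p was 0.0328 with normexp and 0.0455 with quantile normalization, 0.106 with slide as a block, and under spike-in scaling the change was -0.18 (adjusted p = 0.504). With the mean of both probes the gene was called lower at -0.38 (adjusted p = 0.0428).

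Cdkn2a encodes p16Ink4a and, from another first exon and reading frame, p19Arf, which stabilises p53 by binding Mdm2. Its single probe (chromosome 4, 88678367 to 88678426, minus strand) is annotated to 2 RefSeq transcripts, so the Ink4a and Arf transcripts cannot be told apart. The level was 1.84, 1.91 and 1.71 on replicates 1, 2 and 3 of pre-miR-16, against 0.59, 0.69 and 0.76 on replicates 1, 2 and 3 of pre-miR-Control. Both groups were tight and far apart. Cdkn2a averaged 1.82 ± 0.10 in pre-miR-16 cultures and 0.68 ± 0.09 in pre-miR-Control cultures (SD, n = 3 each), a change of 1.14 ± 0.10 or 2.21-fold (95% interval 0.90 to 1.39, adjusted p = 4.24e-04). The SD over its 10 spots within an array was 0.0169 to 0.0407.

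Cdkn2b, the neighbour of Cdkn2a, encodes p15, the Ink4 inhibitor that transforming growth factor beta induces in epithelial cells. It read 4.95, 5.17 and 4.78 on replicates 1, 2 and 3 of pre-miR-16, against 3.83, 3.82 and 4.17 on replicates 1, 2 and 3 of pre-miR-Control. No control array reached the lowest pre-miR-16 array. The means were 4.96 ± 0.20 in pre-miR-16 cultures and 3.94 ± 0.20 in pre-miR-Control cultures (SD, n = 3 each), a change of 1.02 ± 0.15 or 2.03-fold (95% interval 0.65 to 1.39, adjusted p = 0.00294).

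Cdkn2c encodes p18, an Ink4 inhibitor of luminal progenitor and other differentiating cells. Its brighter probe (chromosome 4, 109037613 to 109037672, minus strand) read -1.12, -1.60 and -1.26 on replicates 1, 2 and 3 of pre-miR-16, against -2.90, -2.89 and -2.76 on replicates 1, 2 and 3 of pre-miR-Control. The groups were well separated, and pre-miR-16 replicate 2 was the lowest of its group. The change was 1.53 ± 0.14 or 2.88-fold (95% interval 1.18 to 1.87, adjusted p = 5.20e-04). A second probe changed by 1.73 ± 0.18 (adjusted p = 8.67e-04), but it shares 40 of its 60 bases with the other and is no independent measurement. With normexp the change of the gene was 1.07.

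Cdkn2d encodes p19Ink4d, the Ink4 protein whose transcript cycles with DNA replication in dividing cells. Its level was 1.77, 1.18 and 1.47 on replicates 1, 2 and 3 of pre-miR-16, against 1.20, 1.31 and 1.30 on replicates 1, 2 and 3 of pre-miR-Control. Pre-miR-16 replicate 2 lay below all control arrays and the other pre-miR-16 arrays above them. The change of 0.20 ± 0.16 was not called (95% interval -0.18 to 0.59, adjusted p = 0.330), and it was 0.57 within slide 1 and -0.13 within slide 2. Under spike-in scaling it was 0.61 and called (adjusted p = 0.0467).

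Rb1, the founding tumour suppressor of the family, read 0.16, 0.03 and 0.08 on replicates 1, 2 and 3 of pre-miR-16, against 0.25, 0.29 and 0.26 on replicates 1, 2 and 3 of pre-miR-Control (chromosome 14, 67877318 to 67877377, minus strand). The pre-miR-16 arrays were all slightly lower, by an amount near the shift of all genes. The change of -0.17 ± 0.09 was not called (95% interval -0.38 to 0.04, adjusted p = 0.150).

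Rbl2, whose product binds repressive E2F factors in resting cells, was read by 2 probes on chromosome 8. The brighter probe, 758 bases from the other by start, read -1.42, -1.43 and -1.61 on replicates 1, 2 and 3 of pre-miR-16, against -1.24, -1.32 and -1.22 on replicates 1, 2 and 3 of pre-miR-Control. Both probes had all pre-miR-16 arrays below all control arrays, with changes of -0.23 ± 0.10 (95% interval -0.46 to 0.01, adjusted p = 0.10) and -0.19 ± 0.11 (adjusted p = 0.184), and neither was called.

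Rbl1, which is itself an E2F target and is most abundant in dividing cells, spread widely in the pre-miR-16 group. It read -1.29, -1.78 and -0.94 on replicates 1, 2 and 3 of pre-miR-16, against -1.09, -1.24 and -1.29 on replicates 1, 2 and 3 of pre-miR-Control. Pre-miR-16 replicate 2 was the lowest array and replicate 3 the highest, so that the groups overlapped throughout. The change of -0.13 ± 0.22 was not called (95% interval -0.65 to 0.39, adjusted p = 0.640). With pre-miR-16 replicate 2 left out it was 0.09. Under spike-in scaling the changes of Rb1, Rbl1 and Rbl2 were 0.24, 0.28 and 0.18, on the other side of 0 and not called.

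**Figure D2:**
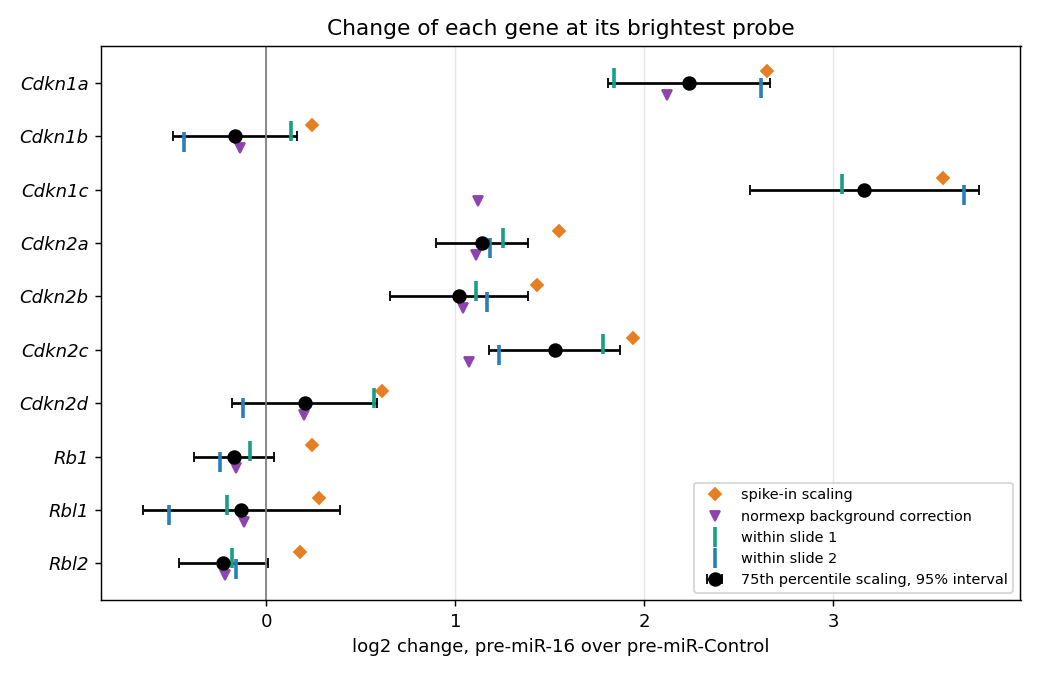
Log2 change of each gene at its brightest probe, pre-miR-16 over pre-miR-Control (horizontal axis), with 95% intervals for 75th percentile scaling (black), spike-in scaling (orange), normexp background correction (purple), and single-slide values for slides 1 and 2 (green and blue ticks). Cdkn1a, Cdkn1c, Cdkn2a, Cdkn2b and Cdkn2c lie right of 0 in every setting drawn, Cdkn1c moves to 1.12 with normexp, and Cdkn1b, Rb1, Rbl1 and Rbl2 change side with spike-in scaling. The values drawn for Cdkn1c are set against control signals not well above background.

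Slides 1 and 2 each held both groups, and the pre-miR-16 array was the higher within each for all 5 genes that rose. Cdkn1a changed by 1.84 within slide 1 and 2.62 within slide 2. For Cdkn1c, not well above background on the control arrays of either slide, no within-slide change can be given. Cdkn2a changed by 1.26 and 1.19, and Cdkn2b by 1.11 and 1.17. For Cdkn2c the order was the opposite of that of Cdkn1a, with 1.78 within slide 1 and 1.23 within slide 2. Slide 3 held no control array and gives no value of its own.

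RefSeq promoter sequences (GRCm38.p6, 250 bases before to 50 after a start site) were at hand for 8 of the 10 genes, at 11 start sites, and were searched on both strands for 3 kinds of motif. An E2F site, taken as any of TTTCCCGC, TTTCGCGC, TTTGGCGC and TTTGCCGC, was found in 2 of the 11 promoters, against 2.265% of all 32851 promoters. The GC box GGGCGG, bound by Sp1 and used at many start sites, was found in 9 of the 11, against 35.66% of all promoters. The p53 response element, a sequence of 20 bases, was searched with up to 2 mismatches. Only the C and G of each of its cores had to match. This element was found in 1 of the 11, an upstream start site of Cdkn1a, against 0.3257% of all promoters. These matches describe letters in a window and not binding, and the motifs do not overlap one another in the sequences printed.

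The 250 bases before 3 of these start sites are printed because they hold the p53 element of Cdkn1a, the most changed member with a full measurement in both groups, and the E2F sites of Cdkn2a and of Rbl1, of which the first gene rose and the second was not called. Capitals mark the p53 element in Cdkn1a, and the E2F sites and GC boxes in Cdkn2a and Rbl1. The Cdkn2a start site is the distal one, from which the Arf transcript begins.
Cdkn1a upstream start, chr17:29090729-29090978 (GRCm38.p6, plus strand): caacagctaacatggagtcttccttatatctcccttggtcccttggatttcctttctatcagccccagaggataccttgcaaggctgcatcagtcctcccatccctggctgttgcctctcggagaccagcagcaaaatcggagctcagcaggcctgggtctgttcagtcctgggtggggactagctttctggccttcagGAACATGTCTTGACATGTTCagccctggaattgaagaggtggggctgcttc
Cdkn2a distal start, chr4:89294620-89294869 (GRCm38.p6, minus strand): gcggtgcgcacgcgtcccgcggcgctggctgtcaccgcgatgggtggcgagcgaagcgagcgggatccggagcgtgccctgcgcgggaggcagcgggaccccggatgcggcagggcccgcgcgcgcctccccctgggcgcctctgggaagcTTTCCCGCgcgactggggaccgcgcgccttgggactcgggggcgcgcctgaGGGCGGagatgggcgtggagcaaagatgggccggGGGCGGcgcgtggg
Rbl1 start, chr2:157204535-157204784 (GRCm38.p6, minus strand): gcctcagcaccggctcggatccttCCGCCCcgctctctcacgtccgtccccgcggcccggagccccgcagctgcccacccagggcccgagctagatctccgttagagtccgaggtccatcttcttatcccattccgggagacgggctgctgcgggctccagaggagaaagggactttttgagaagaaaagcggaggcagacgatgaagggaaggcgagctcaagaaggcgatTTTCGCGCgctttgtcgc
The p53 element of Cdkn1a matched with 1 mismatch, its first base standing at -51 from the start site. The E2F site of Cdkn2a stood at -99 and that of Rbl1 at -18.

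Genes of p53 and its targets went both ways. Of 20 tested, 6 rose and 4 fell (median 0.03), against 7 and 1 when arrays were scaled on spike-ins. For this list and those below, the background is 15.8% of all genes called higher and 32.4% called lower. Mdm2, the ubiquitin ligase for p53 that p53 induces, rose by 1.32 ± 0.11 (adjusted p = 2.93e-04), and the stress genes Pmaip1, which encodes the pro-apoptotic protein Noxa, and Sesn2 rose by 4.96 ± 0.26 and 2.18 ± 0.23. Trp53inp1, a p53-induced nuclear protein, fell (-1.12 ± 0.12, and -0.71 under spike-in scaling, adjusted p = 0.0243). The transcript of p53 itself, Trp53, named after its value was seen, changed by -0.46 ± 0.17 and was not called (adjusted p = 0.0668). On the same arrays Cdkn1a rose by 2.24 and Cdkn2a by 1.14.

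Of 18 regulators of the Ink4/Arf locus tested, 3 rose and 9 fell with 75th percentile scaling (median -0.32), where 15.8% of all genes were called higher and 32.4% lower at a median of -0.20. With spike-in scaling 4 were higher and 1 lower, and with slide as a block 0 were higher and 5 lower. Ezh2, the methyltransferase of Polycomb complex 2 that silences the locus in proliferating cells, fell (-0.92 ± 0.09), and was the 1 gene still lower under spike-in scaling (-0.51, adjusted p = 0.0423). Rnf2 and Cbx7, subunits of Polycomb complex 1, changed by -0.55 ± 0.08 and -0.67 ± 0.10, and neither was called under spike-in scaling (-0.14 and -0.26). The other Polycomb genes listed, named after their values were seen, went different ways. Cbx8 was called higher (0.35 ± 0.11) and Bmi1 lower (-0.48 ± 0.14). Ring1, Eed and Suz12 were not called (-0.18, -0.23 and -0.19). Junb, an AP-1 factor reported to activate p16, rose by 0.97 ± 0.21 and was not called once slide was a block (adjusted p = 0.0591). Id2, an inhibitor of helix-loop-helix factors, changed by -0.98 ± 0.33 (adjusted p = 0.0498) and was not called under spike-in scaling (-0.56) or with slide as a block (-1.24, adjusted p = 0.0599).

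Among Smad and FoxO factors that act upstream of Cdkn genes, 1 of 10 rose and 4 fell (median -0.15). Of all genes, 15.8% were called higher and 32.4% lower, at a median of -0.20. The counts for the list were 3 and 0 under spike-in scaling, with 2 higher under normexp. Tgfb1, the growth factor that induces Cdkn2b and Cdkn1a in epithelium, rose by 1.5 ± 0.12. Smad4 and Smad2, which carry its signal to the nucleus, changed by -0.75 ± 0.10 and -0.73 ± 0.10, and Zbtb17, the repressor and activator Miz1 that binds the Cdkn2b and Cdkn1a promoters, by -0.53 ± 0.09. The Smad4, Smad2 and Zbtb17 falls were not called under spike-in scaling (-0.34, -0.32 and -0.12). Smad3, named after its value was seen, went the other way by 0.26 ± 0.09 and was not called (adjusted p = 0.0512). It was called higher with normexp (0.27) and under spike-in scaling (0.67).

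Of 12 genes listed for the ubiquitin ligases of Cip/Kip proteins, among them Fbxw7 of cyclin E, 3 rose and 3 fell (median -0.02). None of these 6 calls held with slide as a block (adjusted p of 0.0581 to 0.126), and with spike-in scaling 4 were higher and 0 lower. Rnf123, the ligase of p27 in early G1, changed by -0.40 ± 0.09, Rbx1 and Skp1, shared subunits of cullin ligases, by -0.43 ± 0.11 and -0.39 ± 0.11, and Fbxw7, the F-box protein for cyclin E, by 0.36 ± 0.10. Under spike-in scaling the changes of Rnf123, Rbx1 and Skp1 lay between -0.02 and 0.02. Skp2, the F-box protein for p27 itself, named after its value was seen, changed by 0.14 ± 0.25 and was not called.

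Of 14 genes of cyclins, CDKs and CDK regulators, not all of them targets of the inhibitors, 3 rose and 2 fell (median 0.10). The counts were 6 and 0 under spike-in scaling, with 6 higher when pre-miR-16 replicate 2 was left out and 5 higher with normexp. Ccnd2, a D-type cyclin, rose by 3.65 ± 0.31, Cdk6, its partner kinase and an Ink4 target, by 0.79 ± 0.17, and Ccna2, cyclin A2 of S phase, by 2.14 ± 0.52. Cdk4, the other Ink4 target, changed by -0.41 ± 0.11 (adjusted p = 0.0262), by 0.00 under spike-in scaling, and by -0.37 with slide as a block, where it was not called (adjusted p = 0.110). Ccna2 was 2.53 higher within slide 1 and 0.97 higher within slide 2.

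Downstream of the retinoblastoma family, 1 of 9 E2F and DP factors rose and 3 fell (median -0.02), where 32.4% of all genes were called lower. The counts were 3 and 0 with spike-in scaling, with 2 higher when pre-miR-16 replicate 2 was left out. E2f7, an E2F that represses, cleared background on 0 of 3 control arrays and was at least 5.37-fold higher in pre-miR-16 cultures, with a log2 change of 0.89 under normexp, less than this bound. E2f5, a partner of Rbl2, Tfdp2, a DNA-binding partner of E2F proteins, and E2f2 changed by -0.57 ± 0.09, -0.73 ± 0.14 and -0.55 ± 0.14, and these falls were not called under spike-in scaling, nor that of E2f2 with slide as a block (adjusted p = 0.0754). In the MuvB complex, which joins Rbl1 or Rbl2 in resting cells and Mybl2 and Foxm1 in dividing cells, 0 of 7 rose and 1 fell (median 0.09), against 2 and 0 with spike-in scaling, 1 higher with normexp and 3 higher with pre-miR-16 replicate 2 left out. Rbbp4, a histone-binding subunit, changed by -0.60 ± 0.14 (-0.19 and not called under spike-in scaling), and Foxm1, Mybl2 and Lin9 by 1.26 ± 0.43, 0.46 ± 0.19 and -0.43 ± 0.19, none of them called, although Foxm1 was called with normexp (0.79, adjusted p = 0.0490).

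Of 16 E2F target genes of DNA replication, 3 rose and 0 fell (median 0.38), 7 rose under spike-in scaling and 12 without pre-miR-16 replicate 2. Rrm2 and Rrm1, the subunits of ribonucleotide reductase, rose by 3.01 ± 0.58 and 0.56 ± 0.14, and Tyms, thymidylate synthase, by 0.97 ± 0.19, while Ccne1, cyclin E1, changed by 0.82 ± 0.28 and was not called (adjusted p = 0.0532). Of 16 mitotic and proliferation genes, 9 rose and 0 fell (median 1.53, or 0.98 with normexp), 15 under spike-in scaling, 5 with slide as a block and 16 without pre-miR-16 replicate 2. Among the 9, Aurkb, named after its value was seen, passed the filter through the pre-miR-16 arrays only. It was well above background on 0 of 3 control arrays. Tpx2, a spindle assembly factor, Mki67, the proliferation marker Ki-67, Bub1b, a spindle checkpoint kinase, and Ccnb1, the mitotic cyclin B1, rose by 2.45 ± 0.19, 2.39 ± 0.52, 1.77 ± 0.38 and 1.52 ± 0.31. The call of Bub1b ended with slide as a block (adjusted p = 0.0647). Under normexp Bub1b and Ccnb1 changed by 0.80 and 0.78, and Rrm2 by 1.83.

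Taken as lists, these proliferation genes were uneven between the pre-miR-16 replicates. The median level of the mitotic list was -0.68, -1.70 and -0.57 on replicates 1, 2 and 3 of pre-miR-16, against -2.69, -2.67 and -2.97 on replicates 1, 2 and 3 of pre-miR-Control. That of the E2F target list was 2.01, 1.27 and 2.05 on the pre-miR-16 arrays, against 1.14, 1.27 and 1.04 on the control arrays. Pre-miR-16 replicate 2 was thus the lowest of its group in both lists, as it was at the brightest probes of Cdkn1b, Cdkn2c, Cdkn2d, Rb1 and Rbl1, whereas for Cdkn1a, Cdkn1c, Cdkn2a and Cdkn2b it was the highest. Within slide 1 the mitotic list had a median change of 1.98, and within slide 2, which holds replicate 2, of 0.69. Tpx2 of this list was an exception, with 2.17 within slide 1 and 2.39 within slide 2.

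**Figure D3:**
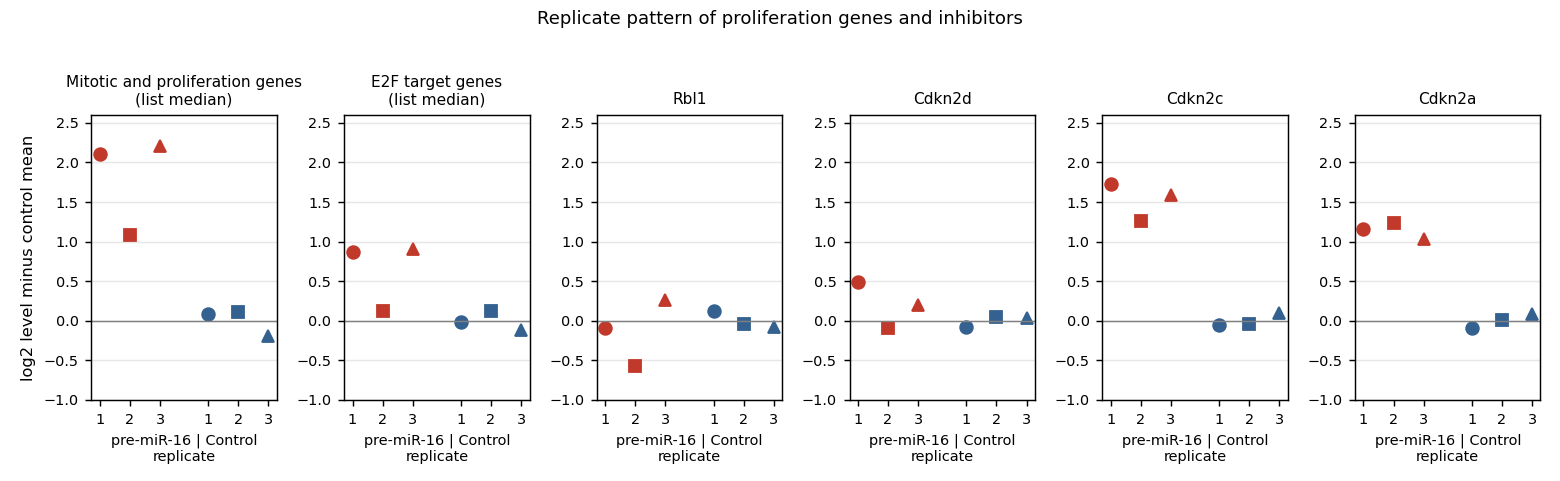
Levels on each array as log2 differences from the mean of the 3 control arrays (vertical axis), pre-miR-16 replicates left in red and pre-miR-Control replicates right in blue, for the median of the mitotic and E2F target lists and for 4 of the genes. Pre-miR-16 replicate 2 (square) is the lowest of its group for both lists, Rbl1, Cdkn2d and Cdkn2c, and the highest for Cdkn2a.

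Markers of cell types also changed, some up and some down. Of 11 macrophage and leukocyte markers, 10 rose and 0 fell (median 4.78, or 3.30 with normexp), and their summed signal, in multiples of the array's 75th percentile, was 185 to 247 on pre-miR-16 arrays and 7.46 to 11.9 on control arrays. Ptprc, the leukocyte antigen CD45, cleared background on 0 of 3 control arrays, and its measured change is the list median of 4.78. It was at least 12.4-fold higher in pre-miR-16 cultures, with a log2 change of 1.81 under normexp, less than this bound. Adgre1, the macrophage protein F4/80, C1qa, C1qc and Tyrobp cleared background on 2 of 3 control arrays, and Itgam on 1 of 3. Csf1r, the 1 marker of this list not called, changed by -0.51 ± 0.26 (adjusted p = 0.146). It was well above background on all 6 arrays, and was called lower with pre-miR-16 replicate 2 left out. Of 11 fibroblast markers, 10 rose and 0 fell (median 3.81), with sums of 633 to 788 on pre-miR-16 arrays and 413 to 483 on control arrays. Most of the control sum came from Dcn, the matrix proteoglycan decorin and the 1 marker not called (-0.07 ± 0.13), singled out after its value was seen. Without it the sums of the other 10 were 297 to 387 on pre-miR-16 arrays and 36.8 to 42.8 on control arrays. Of 11 luminal markers, 0 rose and 9 fell (median -0.76), or 3 fell under spike-in scaling, with sums of 743 to 906 on pre-miR-16 arrays and 1245 to 1391 on control arrays. Of 6 basal and myoepithelial markers, 3 rose and 2 fell (median 1.25, or 0.48 with normexp). The contractile genes Cnn1, Acta2 and Myh11 rose by 4.04 ± 0.16, 3.36 ± 0.23 and 2.27 ± 0.51. Myh11 was not called with slide as a block (adjusted p = 0.0523). The keratins Krt17 and Krt14 changed by -1.83 ± 0.14 and -1.95 ± 0.36. Both were also called lower under spike-in scaling (-1.42 and -1.54) and with slide as a block. Krt5 was not called (0.24 ± 0.27). The part of these cell type markers in the changes of Cdkn1a, Cdkn1c, Cdkn2a, Cdkn2b and Cdkn2c was not tested.

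**Figure D4:**
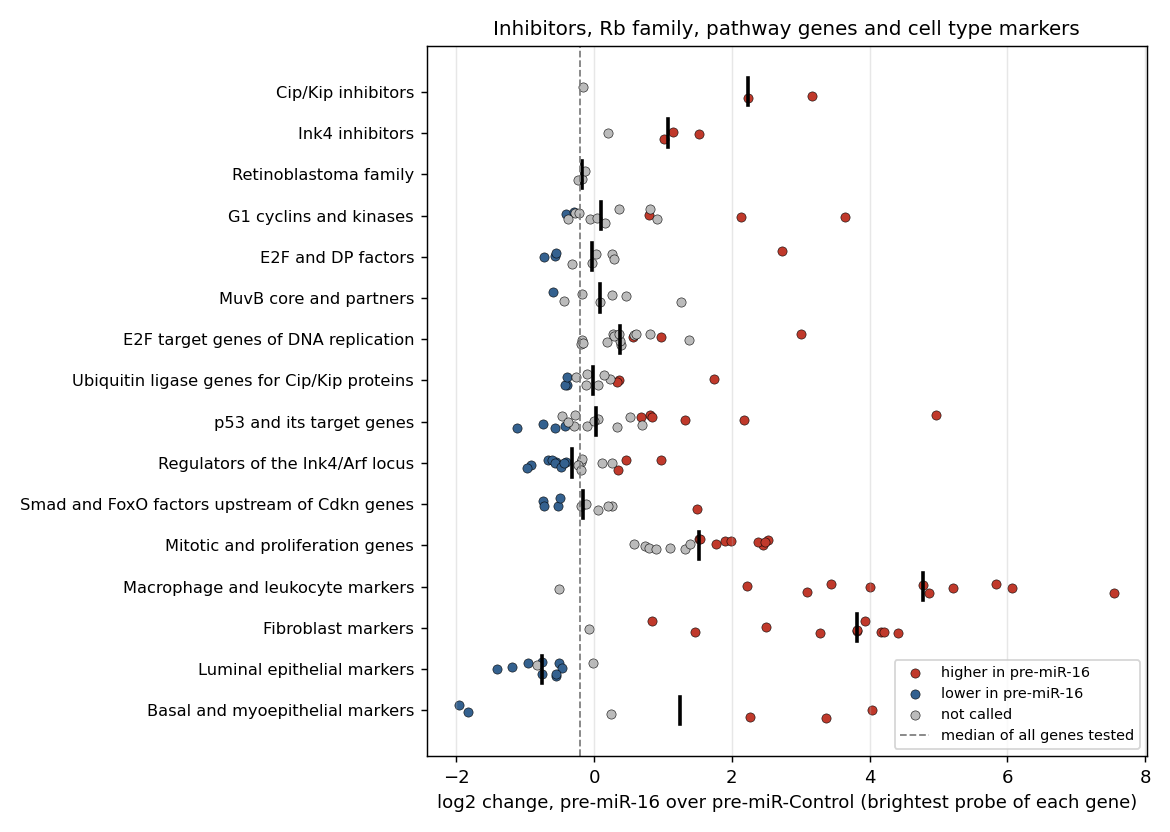
Log2 change of every tested gene at its brightest probe, pre-miR-16 over pre-miR-Control (horizontal axis), by list, with genes called higher in red, called lower in blue and not called in grey, black bars at list medians and a dashed line at the median of all genes, -0.20. The retinoblastoma family lies at that line, the Cip/Kip and Ink4 genes mostly to its right, and the macrophage and fibroblast markers furthest right with medians of 4.78 and 3.81. The macrophage median is the change of Ptprc, set against control signals not well above background.

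The probes whose levels followed each risen inhibitor most closely over the 6 arrays are given as a description, since with 2 separated groups many probes follow: 195 to 992 probes had a Pearson r over 0.98 with one of these genes. For Cdkn1a they were those of Dpep1, a dipeptidase, and Egfr, the epidermal growth factor receptor (r = 0.999 for both). For Cdkn1c they were both probes of Ccnd2 (r = 1.00), which rose by 3.65, although 0 of 3 control arrays had Cdkn1c well above background. For Cdkn2a they were Prss46, named as a serine protease, and Mdm2 (r = 1.00 for both). For Cdkn2b they were Hbegf, a ligand of the epidermal growth factor receptor, and Wwc2 (r = 0.998 for both), and for Cdkn2c Lman2, a lectin of the secretory pathway, and Slc7a5, an amino acid transporter (r of 1.00 and 0.999).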

How the data were processed

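The 6 deposited scanner files hold spot intensity values from Agilent Feature Extraction 9.5.3.1 (design 014868), background-subtracted and detrended within each array and not normalized between arrays, per the file headers. The deposited series matrix holds log2 values whose normalization the sources used here do not give. Its medians are 6.79 to 6.81, and the column named for pre-miR-16 replicate 1 ranks probes as the scanner file of replicate 2 does, and the reverse (Spearman 0.999 for both, against 0.985 for both with the file of the same number), so replicate numbers here are those of the scanner files.

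With R 4.3.3, control and outlier spots (74 to 113 per array) were left out, log2 intensity was centred on each array's 75th percentile and spots of a probe were averaged. Probes well above background in at least 0.5 of spots on all 3 arrays of a group were kept (23828), and 4 with a missing array were dropped. Of the kept probes, 16231 were named by RefSeq accession and the others by the name in the file. The test was that of limma 3.58.1 (lmFit, then eBayes), and the code was tested on simulated data. The p-values measure the spread between these 6 arrays, whose number limits the precision.

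Named genes are the 10 members, of each pathway list the 4 with the smallest p and the largest fall, and the 2 probes most like each risen member. For the cell type markers this rule was not followed. The members and lists were chosen with earlier results of these data known. Alternatives covered scaling, background correction, the matrix values, filters, probe summary, variance model, blocks, thresholds and leaving out each array.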

Additional observations from a re-analysis of the deposited data

How the results depend on the processing

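Cdkn1a, Cdkn1c, Cdkn2a, Cdkn2b and Cdkn2c stayed called higher in every alternative in which they were fitted, with log2 changes of 2.10 to 2.65, 1.12 to 3.58, 1.05 to 1.55, 0.92 to 1.43 and 1.07 to 1.94. Requiring probes well above background on all 6 arrays left out Cdkn1c, and 4 genes were then higher. Spike-in scaling, which shifts every change by 0.41, gave 5958 probes higher and 1440 lower, against 3624 and 7464, so that 80.5% of calls were higher, against 32.7% (28.0% to 39.1% in the other alternatives, or 59.0% with the 2-fold threshold), and turned Cdkn1b (0.24), Rb1 (0.24), Rbl1 (0.28) and Rbl2 (0.18), none called, for a reason its construction shows. Leaving out each array gave -0.33 to 0.09 for Rbl1, the highest without pre-miR-16 replicate 2, and the cause was not tested. Cdkn2d was called with spike-in scaling alone (0.61). An adjusted p under 0.01 left 3849 probes lower, and a 2-fold threshold 2246 higher and 1558 lower. Leaving out each array gave 2783 to 4446 probes higher and 4747 to 7964 lower, the fewest lower without pre-miR-Control replicate 2; 6 of the 13 kept probes of the 10 genes were higher each time, and 0 to 1 lower. Of these 13 probes, 1 was lower (the Cdkn1b coding probe) with quantile normalization, median centring, normexp, the matrix values, the filter on all 6 arrays, or without pre-miR-16 replicate 2. With the mean of a gene's probes 1 gene, Cdkn1b, was lower (-0.38), and the cause of these calls was not tested. The replicate numbers do not pair the samples (correlation of same-numbered deviations -0.0866, -0.0423 and -0.0023), and with the replicate number as a block 3142 probes were higher and 5584 lower, with 5 of the 10 genes higher and 0 lower. Dim signal limits Cdkn1c, known by a bound only.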
